A study of Rattus norvegicus with 6 samples.

Results

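Genes of dopamine and striatal signalling were examined in RNA from tissue labelled as rat brain. The 6 genes were taken by Ensembl ID from a count table of 22250 genes, and all 6 IDs were present in it: Th (ENSRNOG00000020410), Drd1 (ENSRNOG00000023688), Drd2 (ENSRNOG00000008428), Adora2a (ENSRNOG00000001302), Penk (ENSRNOG00000008943) and Tac1 (ENSRNOG00000007374). The study compared 3 libraries from rats with experimental autoimmune prostatitis (EAP), a model of chronic prostatitis made by injecting rat prostate protein mixed with Freund's adjuvant, with 3 libraries labelled normal. Both groups are Rattus norvegicus. The sources used here do not give the strain, age, brain region, time after injection, any injection of the normal rats, or how many animals a library holds. Replicate numbers name libraries and do not say whether these came from separate animals. Each p-value therefore reflects the spread among the 6 libraries alone, which may be technical. The 6 libraries held 12534210 to 14669760 counts each.

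Dopamine is made from tyrosine by way of tyrosine hydroxylase, the product of Th, in neurons of the midbrain, hypothalamus and olfactory bulb. Its densest target is the striatum, whose projection neurons fall into a direct-pathway class with the D1 receptor (Drd1) and substance P (from Tac1) and an indirect-pathway class with the D2 receptor (Drd2), an adenosine receptor (Adora2a) and enkephalin (from Penk). Dopamine in forebrain and hypothalamus is well known for its part in motivation and male sexual behaviour. Penk is also expressed outside the brain, for example in adrenal medulla, heart and mesenchymal cells, and Adora2a in immune and endothelial cells.

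The genes did not behave as a set of striatal markers in these libraries. Drd2 had 0 reads in all 6 libraries and Drd1 had 1 read in all. Th had 20 reads and Tac1 had 41 reads over the 6 libraries, against 223 reads for Adora2a and 4996 for Penk. Of the total of 80766367 counts, the receptors that define both classes of striatal projection neuron thus held 1. The label "striatal" was therefore not borne out, and the genes are named one by one below. Levels of genes that mark brain as a whole are not given, because no source used here pairs another ID of the table with a symbol. That the libraries hold brain RNA was therefore not established here, and every level below is that of tissue labelled as brain. In bulk tissue, fewer cells of a type and less RNA per cell cannot be told apart.

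**Figure D1:**
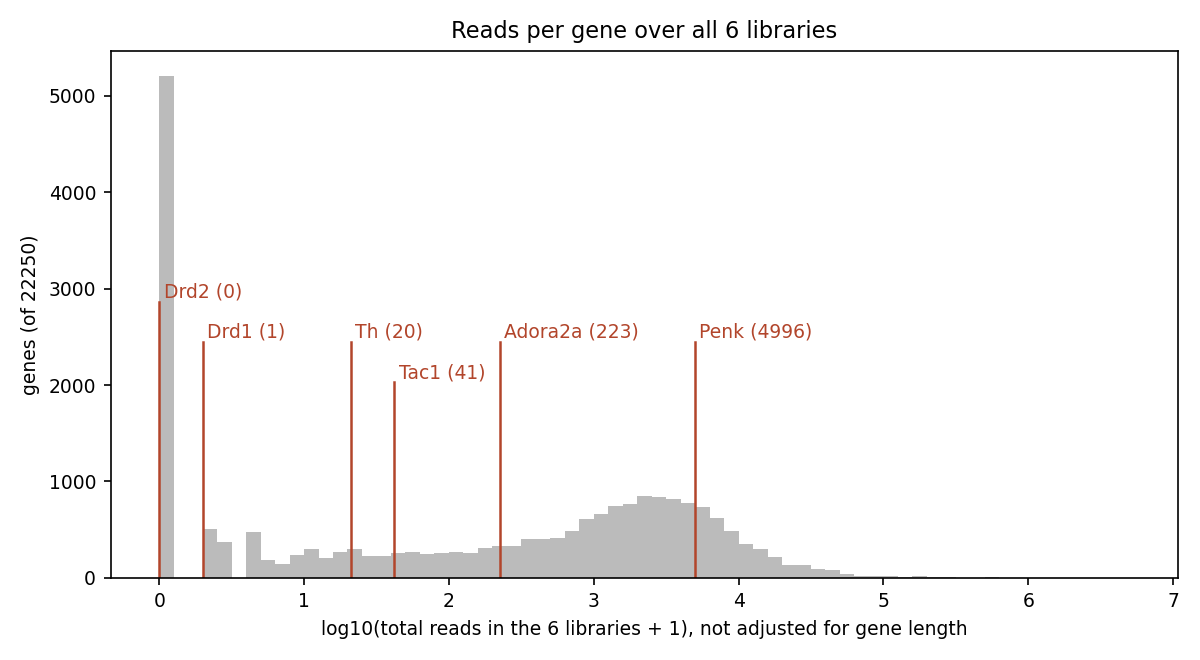
Histogram of reads summed over the 6 libraries for all 22250 genes (x axis, log10 of total reads + 1, not adjusted for gene length; y axis, number of genes), with the 6 examined genes marked by red lines and their totals. Drd2 lies in the bar of 5209 genes with no read, and Penk is the gene of the 6 with the most reads, 4996.

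Each gene's level is given as CPM, that is counts per 1000000 counts of the library after TMM scaling, computed from the deposited counts. Intervals per library are exact 95% Poisson intervals and, like the floors, cover counting error only. In this unit 1 read corresponded to 0.0682 to 0.0782 CPM, and a floor of 3 reads per library, the one-sided 95% limit at a count of 0, to 0.205 to 0.235 CPM. The two-sided interval of a count of 0, drawn as bars in the plot of levels by library, reaches 3.69 reads or 0.252 to 0.289 CPM. Transcript lengths were not used, so levels are compared between libraries for one gene and not between genes.

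Th, the enzyme that limits the rate of dopamine synthesis, was close to the floor. The EAP libraries had 1, 2 and 5 reads (replicates 1 to 3), or 0.0782, 0.148 and 0.371 CPM. The normal libraries had 2, 3 and 7 reads, or 0.156, 0.221 and 0.477 CPM. The third library of each group was its highest, and the groups overlapped. Th averaged 0.199 ± 0.153 CPM in EAP against 0.285 ± 0.17 CPM in normal libraries (SD, n = 3 per group; two-sided exact permutation test, p = 0.5). Within groups the chi-square per degree of freedom was 1.54 in EAP and 1.38 in normal, where counting error alone gives about 1. A difference in Th was not detected at this depth, and how large a difference could have been detected was not computed. Without normal replicate 3 the EAP minus normal difference moved from -0.086 to 0.0102 CPM.

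Drd1, the main Gs- and Golf-coupled dopamine receptor, was seen once, in normal replicate 2. The other 5 libraries had 0 reads. That read corresponds to 0.0738 CPM, with a Poisson interval of 0.00187 to 0.411 CPM. Drd2, the Gi-coupled receptor that is the target of antipsychotic drugs and also an autoreceptor on dopamine neurons, had 0 reads in EAP replicates 1, 2 and 3 and 0 reads in normal replicates 1, 2 and 3. By the floor of 3 reads, the count of 0 allows up to 0.235, 0.222 and 0.223 CPM in the EAP and 0.234, 0.221 and 0.205 CPM in the normal libraries. No fold is given for either receptor, since both groups lay under the floor. Of all 22250 genes, 5714 (25.7%) had at most 1 read over the 6 libraries, as these receptors did.

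Adora2a, a Gs-coupled receptor that opposes D2 signalling in indirect-pathway neurons, was detected in every library at a low level. EAP replicates 1 to 3 gave 21, 42 and 27 reads, and normal replicates 1 to 3 gave 42, 23 and 68. The levels were 1.64, 3.11 and 2.003 CPM in EAP, and 3.28, 1.7 and 4.64 CPM in normal libraries. The highest library was normal replicate 3 and the lowest EAP replicate 1, with normal replicate 2 beside it, so that the groups overlapped. Adora2a averaged 2.25 ± 0.765 CPM in EAP against 3.21 ± 1.47 CPM in normal libraries (SD, n = 3 per group).

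Penk, the precursor of met- and leu-enkephalin, had by far the most reads of the 6. EAP replicates 1 to 3 had 805, 899 and 1041 reads and normal replicates 1 to 3 had 903, 779 and 569. This gave 63.0, 66.6 and 77.2 CPM in EAP and 70.6, 57.5 and 38.8 CPM in normal. Normal replicate 3 lay below the other 5 libraries, and its Poisson interval of 35.7 to 42.1 CPM did not reach that of normal replicate 2, the next lowest, at 53.5 to 61.7 CPM. Normal replicate 1 lay inside the EAP range. Penk averaged 68.9 ± 7.41 CPM in EAP against 55.6 ± 16.0 CPM in normal libraries (SD, n = 3 per group), and the coefficient of variation was 10.8% in EAP and 28.7% in normal.

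Tac1, the precursor of substance P and neurokinin A, was carried mostly by 1 library in each group. EAP replicates 1 to 3 gave 21, 4 and 1 reads, or 1.64, 0.296 and 0.0742 CPM. Normal replicates 1 to 3 gave 10, 1 and 4 reads, or 0.782, 0.0738 and 0.273 CPM. EAP replicate 1 alone held 21 of the 41 reads. Its Poisson interval, 1.02 to 2.51 CPM, lay above those of EAP replicate 2 (0.0807 to 0.759 CPM) and EAP replicate 3 (0.00188 to 0.413 CPM). Tac1 averaged 0.671 ± 0.849 CPM in EAP against 0.376 ± 0.365 CPM in normal libraries (SD, n = 3 per group; two-sided exact permutation test, p = 0.6). The direction rested on EAP replicate 1: without it the EAP minus normal difference was -0.191 CPM, against 0.295 CPM with it.

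**Figure D2:**
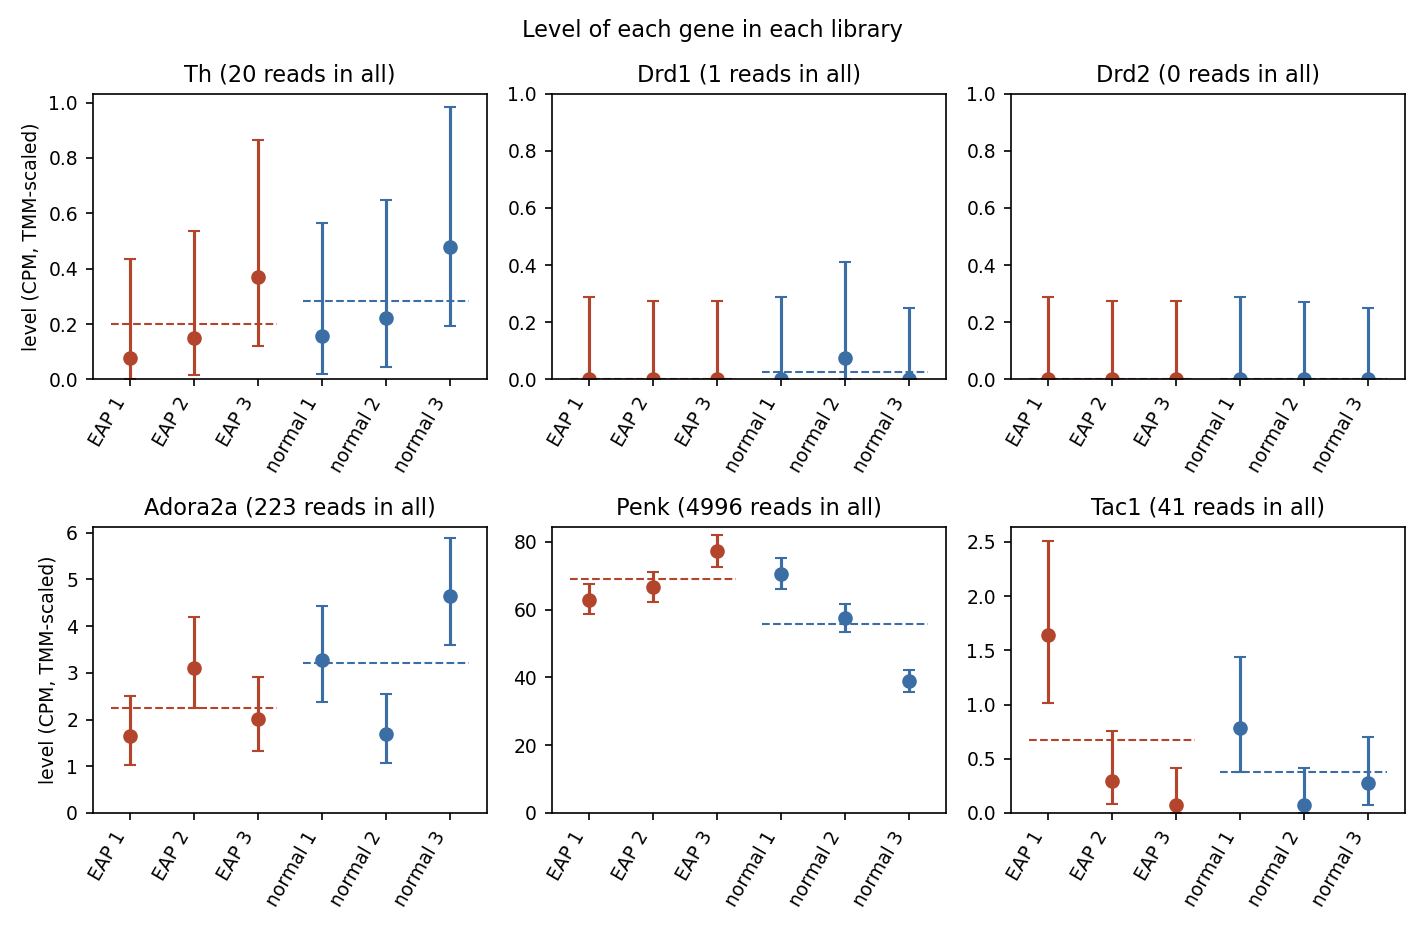
Level of each gene (y axis, CPM after TMM scaling, one scale per panel) in the 3 EAP (red) and 3 normal (blue) libraries, with exact 95% Poisson intervals as bars and group means as dashed lines. EAP and normal overlap in each of the 6 panels; normal replicate 3 is the lowest for Penk at 38.8 CPM and the highest for Adora2a at 4.64 CPM.

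To ask whether these genes differed in EAP, the whole table was fitted with the quasi-likelihood test of edgeR. The expression filter kept 13155 of 22250 genes (59.1%) and 2 of the 6 genes, Adora2a and Penk. Th, Drd1, Drd2 and Tac1 had too few reads for it. Neither of the 2 was called at an adjusted p under 0.05, a rule that called 0.0304% of all genes tested, and neither had an unadjusted p under 0.05, which 11.1% of genes had. DESeq2, which called 1.35% of the genes it gave an adjusted p, and limma voom, which called 0.0076%, also called 0 of the 2, with 0 at an unadjusted p under 0.05. DESeq2 gave an adjusted p to Tac1 as well, which it did not call (log2 difference 0.84, SE 1.2, DESeq2 adjusted p = 0.915). The EAP and normal levels were free of overlap in 0 of the 2 genes, against 16.8% of all genes tested.

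The Penk level was higher in EAP by 0.31 on the log2 scale (SE 0.205, edgeR adjusted p = 0.6), a fold of 1.24 with a 95% interval of 0.891 to 1.73. The Adora2a level in EAP was -0.51 on the log2 scale relative to normal (SE 0.425, edgeR adjusted p = 0.682), a fold of 0.703 with a 95% interval of 0.363 to 1.36. Both intervals include no change, and neither is narrow enough to show that the levels were alike in both groups. The absolute differences exceeded the median over all genes tested, 0.16 on the log2 scale, and ranked at the 75.4th percentile for Penk and the 88.7th for Adora2a. These ranks are over genes of all levels and do not allow for the wider spread of genes at low levels, such as Adora2a. Normal replicate 3 carried much of both: without it the log2 difference was 0.11 for Penk and -0.14 for Adora2a. Without normal replicate 1, the normal library with the highest Penk level, the Penk difference was 0.52 (edgeR unadjusted p = 0.0209, adjusted p = 0.564). In that fit 1096 genes had an unadjusted p under 0.05. The other fits with 1 library left out gave Penk edgeR unadjusted p of 0.159 to 0.452. Without EAP replicate 2 or normal replicate 2 the Adora2a difference was -0.82 in each case.

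**Figure D3:**
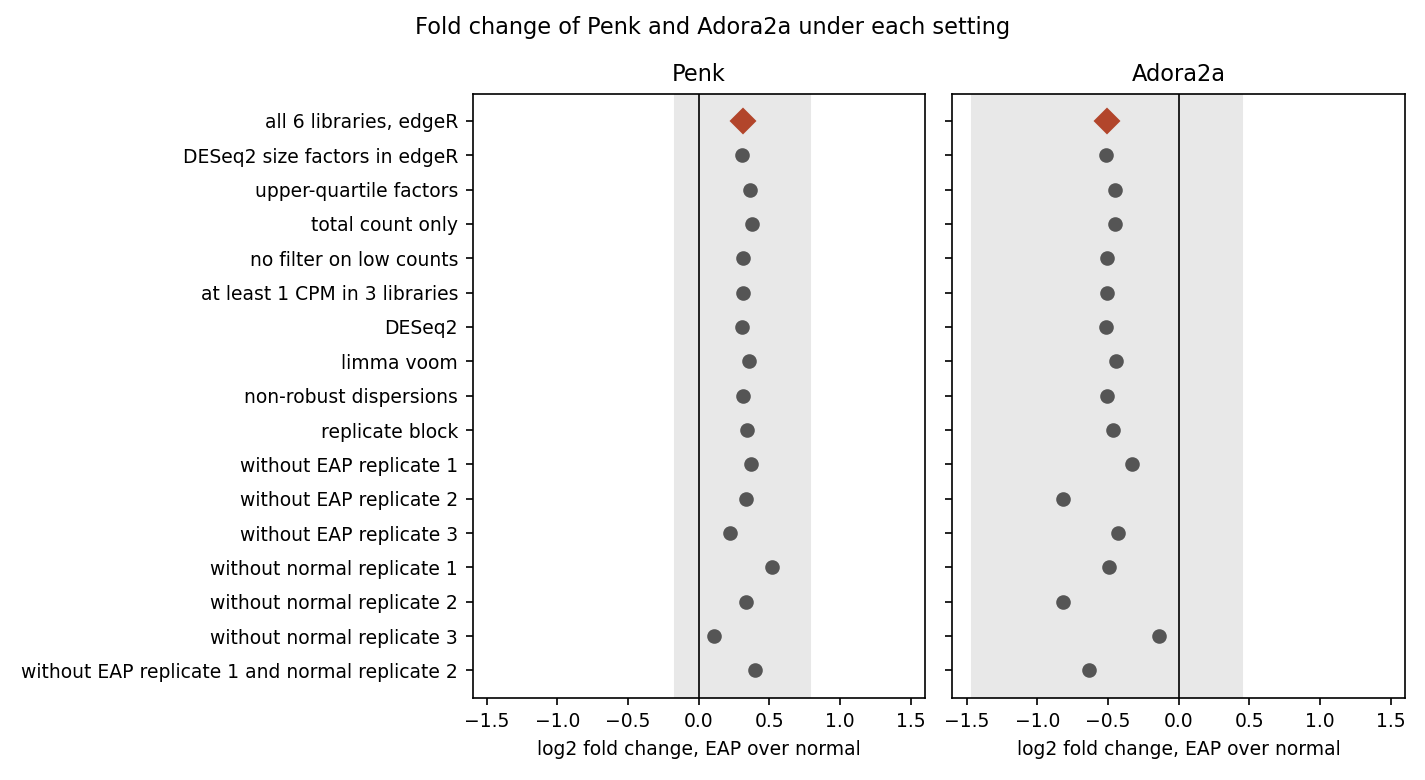
Log2 fold change of Penk (left) and Adora2a (right), EAP over normal (x axis), with all 6 libraries in edgeR (red diamond) and under each other setting (grey dots, y axis); the grey band is the 95% interval of the red diamond and the line marks no difference. Penk stays above 0 and Adora2a below 0 in the settings shown, with the smallest values, 0.11 and -0.14, without normal replicate 3.

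Penk and Adora2a varied between libraries of one group by more than counting error. The chi-square per degree of freedom for Penk was 10.5 among EAP and 64.0 among normal libraries, and for Adora2a it was 3.43 and 9.38. This value grows with the number of reads, so it does not rank genes by spread. Its distribution over all genes was not computed. The coefficient of variation that edgeR fitted beyond counting error was 19.2% for Penk and 34.2% for Adora2a. The median over the genes tested was 15.5%, with Penk at the 66.2th and Adora2a at the 91.9th percentile. The SD within groups on the log2 CPM scale was 0.33 for Penk and 0.58 for Adora2a, with a median of 0.19 over the 13155 genes tested. Penk stood at the 75.5th and Adora2a at the 91.7th percentile of that SD. The percentiles are over genes of all levels and do not allow for the wider spread of genes at low levels, such as Adora2a. From the lowest to the highest library Penk ranged 1.99-fold and Adora2a 2.82-fold in CPM. The spread of Tac1 also exceeded counting error, with a chi-square per degree of freedom of 14.3 in EAP and 4.77 in normal.

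**Figure D4:**
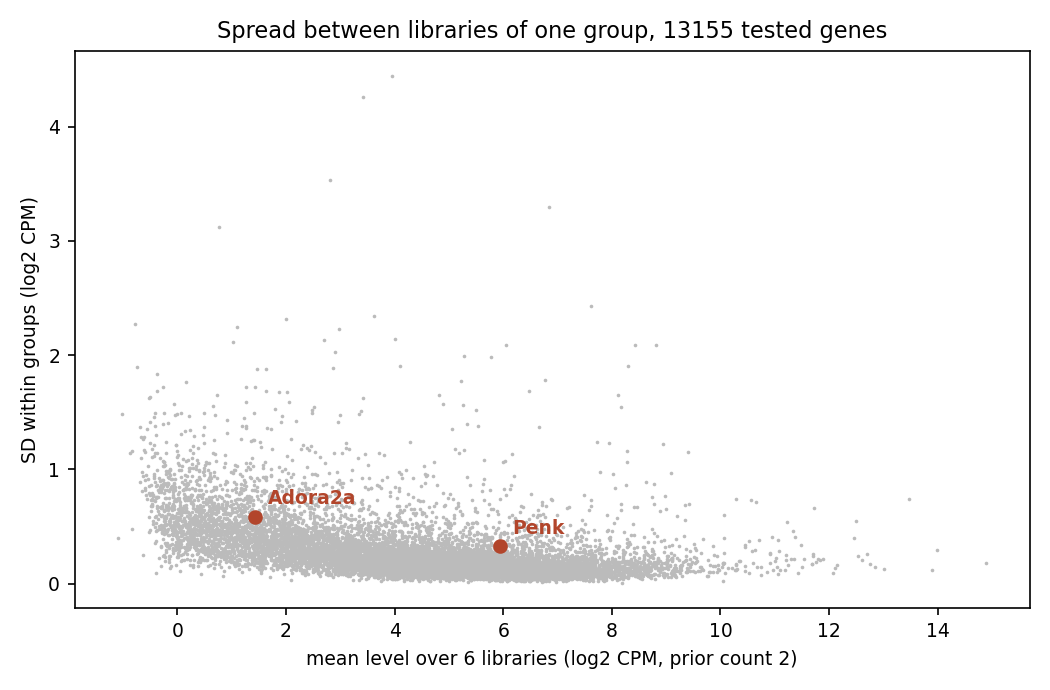
SD within groups (y axis, log2 CPM) against mean level (x axis, log2 CPM with a prior count of 2) for each of the 13155 genes tested (grey), with Penk and Adora2a in red. Penk has an SD of 0.33 and Adora2a, which has the lower level, an SD of 0.58; the grey points spread more widely at low levels.

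No correlation between the genes across the 6 libraries passed the exact test. Penk and Adora2a had a Pearson r of -0.52 (exact permutation p = 0.297) and a Spearman rho of -0.0857 (exact permutation p = 0.919) on log2 CPM. Without normal replicate 3 and EAP replicate 1, the libraries farthest from the median of Adora2a, r was 0.34, so the negative value rests on those libraries. Only 6 pairs could be formed from Th, Adora2a, Penk and Tac1, and none had a Benjamini-Hochberg adjusted exact permutation p under 0.533 for r or under 0.817 for rho. Th and Tac1 had the strongest relation (r = -0.70, exact permutation p = 0.117; rho = -0.71, exact permutation p = 0.136; r = -0.92 without normal replicate 3 and EAP replicate 3), in genes with 1 to 7 and 1 to 21 reads a library. For the pair of peptide precursors, Penk and Tac1, r was 0.0554 (exact permutation p = 0.932).

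The levels of the peptide precursors were set against each other within each library as the log2 ratio of Tac1 to Penk. EAP replicates 1 to 3 had ratios of -5.14, -7.23 and -8.44, and normal replicates 1 to 3 had -6.25, -8.02 and -6.53. The EAP libraries thus held both the highest and the lowest ratio, and the groups overlapped. The ratio averaged -6.94 ± 1.67 in EAP against -6.93 ± 0.951 in normal libraries (SD, n = 3 per group; two-sided exact permutation test, p = 1). The ratio cancels library scaling but carries the counting error of Tac1. It was formed from log2 CPM with a prior count of 2, which raises the level of a gene with few reads. In EAP replicate 3 and normal replicate 2, where Tac1 had 1 read, it is therefore less negative than the CPM values above would give. The SDs of the ratio depend on that prior count as well. The corresponding ratio of Drd1 to Drd2 could not be formed from 1 and 0 reads.

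Among 12018 other genes whose log2 CPM averaged 1 or more, those most like Penk over the 6 libraries were ENSRNOG00000002352 (r = 0.989) and ENSRNOG00000014526 (r = 0.988). Those most like Adora2a were ENSRNOG00000004742 (r = 0.977) and ENSRNOG00000039300 (r = 0.976). These values describe 6 libraries that share depth and scaling, and 102 genes reached an r of 0.9 with Penk and 49 with Adora2a. Adora2a itself ranked 10288 by its likeness to Penk, far down the same order. That rank restates the r of -0.52 above, which rests on normal replicate 3 and EAP replicate 1. ENSRNOG00000014526 had 16.7, 17.9 and 19.9 CPM in EAP and 18.3, 15.3 and 12.5 CPM in normal replicates 1 to 3, the same order of libraries as Penk. The other IDs changed little in size. ENSRNOG00000002352 ran from 31.8 to 37.6 CPM, where Penk ran from 38.8 to 77.2 CPM. ENSRNOG00000004742 ran from 120 to 139 CPM and ENSRNOG00000039300 from 34.7 to 41.9 CPM, where Adora2a ran from 1.64 to 4.64 CPM. A high r thus does not mean changes of like size. The table pairs none of these IDs with a symbol.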

How the data were processed

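Poly(A)-selected RNA of 6 libraries was sequenced, per the labels' protocols. The authors deposited raw read counts per Ensembl gene, per the file headers. Among tools, the submitters' processing notes list featureCounts 2.0.3, HISAT2 2.2.1, Trimmomatic 0.39 and DESeq2 1.36.0, and as build Rnor_6.0. Sources used here do not give settings, annotation release or strand handling, so reads shared by overlapping genes are of uncertain assignment. Coordinates are left out, since the reference table is of another build. All 6 columns were matched to libraries by name.

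The genes, the lists and the alternatives were chosen with earlier results of these data known. The 6 ID-symbol pairs came with the choice of genes. They could not be checked: of 47357 entries in the RefSeq GRCr8 gene table, 0 carry an Ensembl ID. Lists of other striatal, dopamine and brain-region genes, written by symbol, could not be applied.

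Counts were tested with edgeR 4.0.16 (R 4.3.3): TMM factors, the default filter (minimum count 10), robust dispersions, group as the only term, two-sided, Benjamini-Hochberg over all genes tested, threshold 0.05. Log2 CPM used a prior count of 2. With 3 libraries against 3 the exact permutation test cannot give p below 0.1. The named genes are the 6, plus the 2 most correlated IDs for each tested gene. The planned profile of 5 striatal genes could not be formed with Drd2 at 0, nor one for Th, so Penk and Adora2a were used singly, a choice made after seeing the counts. The fits were also run on counts simulated from levels and dispersions fitted to these same data, with 200 genes changed by known folds. The shares of changed genes recovered are not given here. Alternatives included DESeq2 1.42.0 and limma 3.58.1.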

Additional observations from a re-analysis of the deposited data

How the results depend on the processing

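In all 16 other settings Penk kept a higher and Adora2a a lower level in EAP, and neither passed the adjusted threshold. Their log2 differences ran from 0.11 to 0.52 and from -0.82 to -0.14 when 1 library was left out. The count of all genes called was 4. It was 0 with upper-quartile factors and with non-robust dispersions (1536 and 1512 genes at an unadjusted edgeR p under 0.05), 1 with total counts only and with limma voom, 7 with no filter and 189 with DESeq2. Leaving out 1 library gave 0 to 47 genes, and leaving out EAP replicate 1 and normal replicate 2 gave 333. With the replicate block edgeR called 80 genes, and Penk (0.34) and Adora2a (-0.47) stayed outside the calls. Same-numbered libraries share no stated origin and their deviations correlated at 0.0515 to 0.0718, under 0.1, although each of the 6 libraries matched its own number best. For genes near the floor the direction was not stable. With 1 library left out, the EAP minus normal difference was -0.172 to 0.0102 CPM for Th and -0.191 to 0.594 CPM for Tac1. The Tac1 difference was -0.342 CPM without EAP replicate 1 and normal replicate 2. The Tac1 to Penk log2 ratio differed by -0.90 to 0.75 with 1 library left out and by 0.036 with a prior count of 0.5. The correlation of Adora2a with Tac1 changed sign from -0.00218 to 0.0824 with that prior count and to 0.907 without the 2 libraries farthest from the median, and that of Adora2a with Penk to 0.34 without 2 libraries. The cause of these changes was not tested. With no filter edgeR gave adjusted p = 0.878 for Th and 0.804 for Tac1.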
